A study of Homo sapiens with 3 samples.

Results

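Translation initiation factors are the proteins that bring the initiator tRNA, the messenger RNA and the ribosome together at a start codon, and the values below are the transcript levels of their genes in HT29 cells on 3 culture surfaces. The members were all genes whose symbol starts with EIF followed by a digit, without the EIF2AK kinases, non-coding genes and pseudogenes, together with MKNK1, MKNK2 and PDCD4. The RefSeq gene table held 55 coding genes of this kind, of which 51 had a probe on the array, among 21614 genes with a probe in all. EIF2S3, EIF2S3B, EIF3CL and EIF4EBP3 had no matched probe, no level is given for the Y-linked EIF1AY, and the other 50 genes were read by 75 probes. HT29 is an established human colorectal adenocarcinoma line. The cells were grown on tissue culture polystyrene (TCP, titled 2D in the labels), on a membrane of chitosan (CS), the cationic polysaccharide derived from chitin, or on a chitosan membrane with grafted hyaluronan (CSHA). The cell line was the same in all groups, and the surface was the labelled difference. Each surface was represented by 1 one-colour array of total RNA, so no comparison has a replicate check and none has a p-value. What a difference owes to the surface and what it owes to the culture, the RNA extract or the array cannot be told apart.

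In the cytoplasm, eIF2 carries the initiator tRNA to the small ribosomal subunit, eIF3 and the start codon factors hold the subunit ready, and eIF4F loads it onto the capped end of the messenger RNA. eIF4F is built from the cap-binding protein eIF4E, the scaffold eIF4G and the RNA helicase eIF4A. After each round eIF2 is left bound to GDP, and eIF2B recharges it with GTP. Phosphorylation of the alpha subunit of eIF2 under stress turns eIF2 into an inhibitor of eIF2B, while the 4E-binding proteins, which are substrates of mTOR, hold eIF4E away from eIF4G. These control points make the factors a common object of study in colon and other cancers, where MYC and mTOR signalling act on protein synthesis.

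Promoters are shown for 5 factors, to let the start regions of factors that were lower on CSHA be read beside those of factors that were not. The sequences are from RefSeq on GRCh38.p14 and run from 250 bases before to 50 bases after the start of the gene, 5′ to 3′ on the strand of the gene. Capitals mark CACGTG, the core E-box bound by MYC and MAX among other factors, which reads the same on both strands. EIF4G1 is at chr3:184314356-184314655 on the plus strand, EIF4E at chr4:98929084-98929383 on the minus strand, EIF4B at chr12:53006206-53006505 on the plus strand, EIF2B5 at chr3:184135108-184135407 on the plus strand and EIF6 at chr20:35284668-35284967 on the minus strand.
EIF4G1: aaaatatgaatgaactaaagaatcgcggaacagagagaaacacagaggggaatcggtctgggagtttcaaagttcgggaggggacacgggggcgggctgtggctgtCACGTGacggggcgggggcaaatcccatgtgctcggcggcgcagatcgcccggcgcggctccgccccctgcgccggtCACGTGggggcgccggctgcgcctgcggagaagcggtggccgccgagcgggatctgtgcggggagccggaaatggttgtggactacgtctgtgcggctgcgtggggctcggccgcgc
EIF4E: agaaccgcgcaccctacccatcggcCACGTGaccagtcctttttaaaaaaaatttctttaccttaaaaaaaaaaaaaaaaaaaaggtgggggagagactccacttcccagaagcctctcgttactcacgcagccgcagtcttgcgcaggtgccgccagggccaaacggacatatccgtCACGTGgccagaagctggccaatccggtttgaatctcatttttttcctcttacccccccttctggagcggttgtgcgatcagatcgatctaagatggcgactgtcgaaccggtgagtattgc
EIF4B: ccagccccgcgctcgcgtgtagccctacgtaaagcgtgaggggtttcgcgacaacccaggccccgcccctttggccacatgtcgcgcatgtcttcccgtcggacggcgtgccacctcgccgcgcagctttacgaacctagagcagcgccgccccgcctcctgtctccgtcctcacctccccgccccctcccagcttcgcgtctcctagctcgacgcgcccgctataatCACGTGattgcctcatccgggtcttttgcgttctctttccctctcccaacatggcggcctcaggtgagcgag
EIF2B5: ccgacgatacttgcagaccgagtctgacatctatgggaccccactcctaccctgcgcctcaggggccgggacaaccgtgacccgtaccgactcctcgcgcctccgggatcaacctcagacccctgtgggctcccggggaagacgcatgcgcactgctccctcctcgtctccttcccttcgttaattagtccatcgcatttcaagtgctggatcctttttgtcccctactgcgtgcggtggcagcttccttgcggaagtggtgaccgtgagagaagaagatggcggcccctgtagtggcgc
EIF6: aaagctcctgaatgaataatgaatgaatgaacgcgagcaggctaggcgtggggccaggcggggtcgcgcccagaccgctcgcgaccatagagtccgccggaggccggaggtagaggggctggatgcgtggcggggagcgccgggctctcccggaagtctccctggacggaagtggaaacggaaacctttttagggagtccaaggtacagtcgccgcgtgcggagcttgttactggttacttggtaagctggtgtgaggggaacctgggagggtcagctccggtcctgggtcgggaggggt
The E-boxes of EIF4G1 begin at positions -144 and -67 from the start, those of EIF4E at -225 and -72, and that of EIF4B at -22. The printed windows of EIF2B5 and EIF6 hold none.

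Levels are log2 of the background-subtracted signal minus the 75th percentile of the same array, and a difference of 0.585 on this log2 scale is the 1.5-fold used here to call a gene higher or lower. Genes with several probes are given by the brightest. In all, 48 of the 50 genes were well above background on each of the 3 arrays. EIF4E1B and EIF4E3, both cap-binding homologues of eIF4E, were not well above background on any array. The 6 factors whose probe was printed 10 times, EIF2B1, EIF2B5, EIF2D, EIF4EBP2, EIF4G2 and EIF5B, had a median standard deviation between spots of 0.053, 0.0396 and 0.0467 on TCP, CS and CSHA on the log2 scale. The scanner software's own error for a difference of a factor had a median of 0.204. Both measures cover the printing, hybridisation and reading of 1 array and leave out differences between cultures. How often the spots of different arrays failed to overlap among all 860 probes printed 10 times was not counted. All 11 colon epithelial markers examined were well above background on each array. Of 7 stromal markers, SPARC and VIM were well above background on TCP and none was on CS or CSHA. The collagens COL1A1, COL1A2 and COL3A1 were not on any array. Of the leukocyte markers, PTPRC, CD14 and CD68 were well above background on each array and CD3E on TCP and CSHA. Across TCP, CS and CSHA the level of CD14 was 1.24, 1.74 and 2.28, that of CD68 was -1.57, -0.77 and -0.57, that of PTPRC was -3.17, -3.01 and -3.13, and that of CD3E was -1.54, -4.36 and -3.29, so these markers did not move one way. The part of these markers in the differences below was not tested.

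On the CS membrane the initiation factors stayed close to their TCP levels. None of the 48 measured genes was 1.5-fold higher or lower than on TCP, where 9.15% of the 14464 genes compared were past this fold in either direction and 5.71% of those well above background on every array. The median difference of the factors, CS minus TCP, was 0.10 on the log2 scale, beside 0.04 over all genes compared, and 31 of 48 were above 0, beside 56.8% of all genes. The range ran from -0.53 for EIF4G1 to 0.43 for EIF3E.

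On CSHA the factors spread further from TCP than on CS, as did all genes. The share of factors lower by 1.5-fold was near that of all genes. Against TCP, 6 of the 48 were past 1.5-fold, where 22.7% of the 14623 genes compared were, and 20.2% of those well above background on every array. The share of factors, 12.5%, was below the share of all genes. EIF2B5, EIF4G1, EIF3G, EIF6 and EIF2B4 were lower, 5 of 48 beside 11.2% of all genes, and PDCD4 was higher, 1 of 48 beside 11.5%. EIF2B5 and EIF4G1 were also lower by more than 2-fold, where 3.98% of all genes were. The median difference was 0.13, equal at this precision to 0.13 over all genes, with the quartiles of the factors at -0.18 and 0.30. Of the factors 30 of 48 were above 0, beside 61.7% of all genes. Counts above 0 within single complexes on CSHA against TCP have that same share beside them. Scaling to the spike-in controls in place of the 75th percentile moved the median of all genes by 0.44 on CSHA against TCP, and by 0.39 on CSHA against CS. On that scale 24 factors were higher and 1, EIF2B5, was lower. The 5 lower factors stayed below 0 on both scales, and relative to the median of all genes EIF2B5 was at -1.28 and EIF4G1 at -1.15 with the spike-in scaling.

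**Figure D1:**
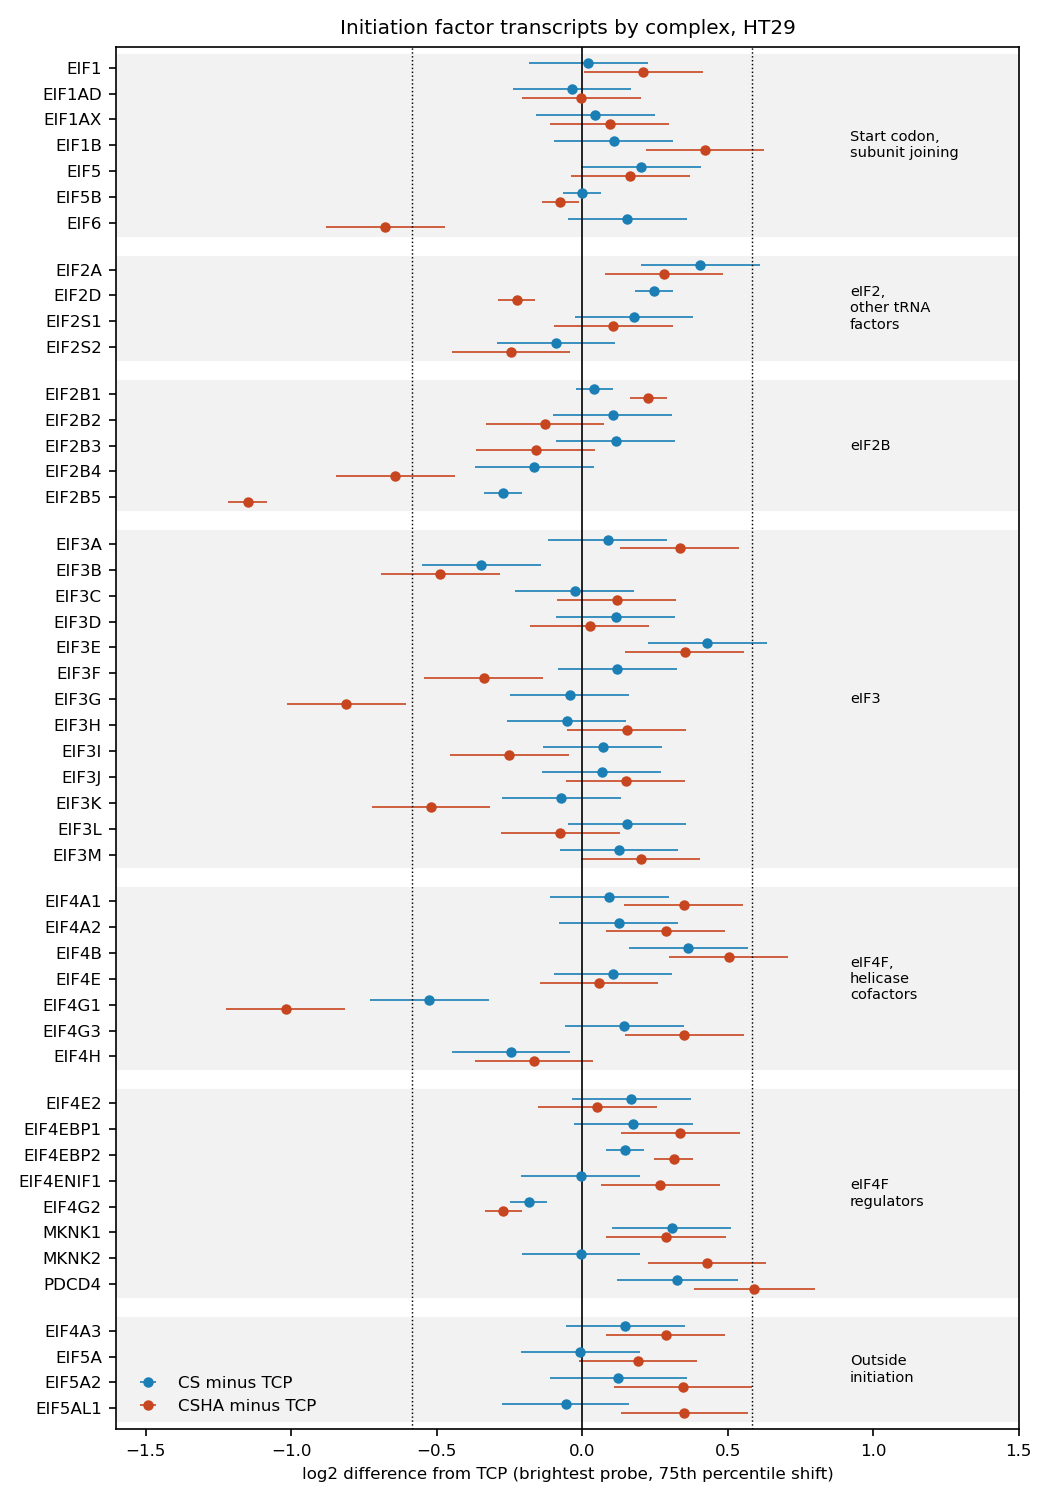
Difference in log2 level from TCP for the 48 measured initiation factor genes (rows, grouped by complex), with CS minus TCP in blue and CSHA minus TCP in red. Bars are the scanner software's error, dotted lines mark 1.5-fold, and there is 1 array per surface. No blue point lies past a dotted line, while EIF2B5, EIF4G1, EIF3G, EIF6 and EIF2B4 lie past the left one and PDCD4 past the right one in red. Scaling to spike-in controls would move the red points right by 0.44 and turn the sign of those between -0.44 and 0, EIF2S2 and EIF4G2 among them.

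Within eIF4F, the scaffold gene EIF4G1 had the lowest difference from TCP on both membranes. EIF4G1, the main scaffold that joins the cap-binding protein to the helicase and to eIF3, had a level of 4.15, 3.63 and 3.14 on TCP, CS and CSHA. It was thus highest on TCP, lower by 0.53 on CS and 2.03-fold lower on CSHA, with a software error of 0.204 for the difference of -1.02. The array read EIF4G1 with a single probe, annotated to the transcript NM_182917, so no second probe could be set beside it. Its paralogue EIF4G3 was at 2.64, 2.79 and 2.99 on TCP, CS and CSHA. EIF4G3 therefore moved the other way, with differences from TCP of 0.15 and 0.35 that stayed under 1.5-fold. The cap-binding protein EIF4E had a level of 4.08 on the TCP array, 4.19 on the CS array and 4.14 on the CSHA array, and its differences of 0.11 and 0.06 were within the software error.

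The helicase genes lay near the middle of the group, above TCP on both membranes with their brightest probes. EIF4A1, the main helicase of the complex, was at 6.18, 6.27 and 6.53 on TCP, CS and CSHA, and EIF4A2, its paralogue, at 4.92, 5.05 and 5.21. Both differed from TCP by under 1.5-fold, by 0.35 and 0.29 on CSHA. EIF4B, an RNA-binding cofactor that stimulates the helicase, had the highest difference from TCP of the complex on both membranes, with levels of 5.52, 5.88 and 6.02 on TCP, CS and CSHA. EIF4H, a related cofactor, was at 6.78, 6.53 and 6.61 and so lower than on TCP by 0.24 on CS and 0.17 on CSHA, although spike-in scaling turned the latter to 0.27 higher. Of the 7 genes of eIF4F and its cofactors, 5 were above 0 and 2 below on CSHA against TCP, with a median of 0.29, or 0.72 with spike-in scaling.

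Other probes of these genes did not all follow the brightest. For EIF4B the brightest probe differed by 0.50 on CSHA against TCP, and the other probes by 0.25 and -0.53. For EIF4A1, 3 probes were between 0.26 and 0.35 and the remaining probe was at -0.41. The signal of EIF4A1 may also include processed pseudogenes of near-identical sequence, which a probe cannot tell apart. Among the 17 factors with more than 1 probe, all probes of a gene shared a sign in 10 on CSHA against TCP. Those with probes of both signs were EIF2S2, EIF3J, EIF4A1, EIF4B, EIF4E2, EIF4ENIF1 and MKNK2. Each of the 6 factors past 1.5-fold rested on a single probe.

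**Figure D2:**
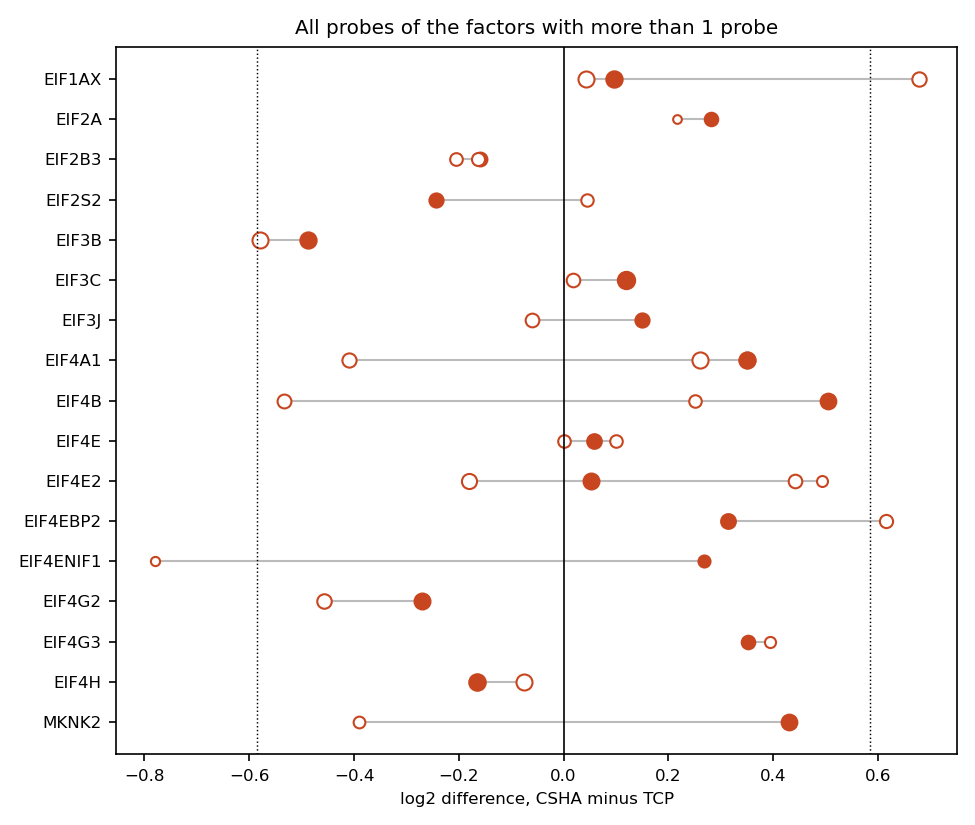
Difference in log2 level, CSHA minus TCP, of every probe of the 17 factors with more than 1 probe. Filled circles are the brightest probe of each gene and open circles the others, larger circles had higher signal on TCP, and dotted lines mark 1.5-fold. Probes of EIF2B3, EIF3B and EIF4G3 lie close together, whereas those of EIF4ENIF1 are 1.05 apart, and spike-in scaling would move all points right by 0.44 and bring all probes of some mixed genes above 0.

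Genes that restrain or tune eIF4F were mostly somewhat higher on CSHA. PDCD4, which binds the helicase and blocks it, was at -0.58 on the TCP array, -0.25 on the CS array and 0.01 on the CSHA array. That placed it 1.51-fold higher on CSHA than on TCP, just past the threshold, with CS between them. The call was lost with normexp background correction at 0.48, with the percentile taken over detected probes at 0.53 and with the deposited values at 0.49. The next factor inside the threshold was EIF4B at 0.50 among the higher ones, and EIF3K at -0.52 among the lower ones. EIF4EBP1, the best known 4E-binding protein, was at 4.54, 4.72 and 4.88 on TCP, CS and CSHA. EIF4EBP2, its paralogue, was at 4.26, 4.40 and 4.57. For EIF4EBP2 the 10 spots ranged from 4.16 to 4.32 on TCP, then 4.33 to 4.47 on the CS array and 4.51 to 4.63 on the CSHA array, where 9 were usable. The spots of the 3 arrays did not overlap, and the share of all probes printed 10 times for which this held was not counted. The difference of EIF4EBP2 on CSHA from TCP was 0.31. A second EIF4EBP2 probe differed by 0.62.

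The kinases MKNK1 and MKNK2, which phosphorylate eIF4E when bound to eIF4G, differed in pattern. MKNK1 was at 0.07, 0.38 and 0.36 on TCP, CS and CSHA, and was thus higher by a like amount on both membranes. MKNK2 was at 5.58, 5.58 and 6.01 and stood apart only on CSHA, with a second probe at -0.39. EIF4G2, an eIF4G relative that lacks the eIF4E-binding part, was the one gene of this group below TCP on CSHA, at 5.92, 5.74 and 5.65, and its sign turned to 0.17 with spike-in scaling. Over the group, 7 of 8 genes were above 0 on CSHA against TCP with a median of 0.30, and 5 of 8 were on CS. Over all genes compared, 61.7% were above 0 on CSHA with a median of 0.13, and 56.8% on CS. With spike-in scaling all 8 were above 0, where the median of all genes was 0.57.

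eIF2B was the complex with the lowest median on CSHA. EIF2B5, the epsilon subunit that carries the exchange activity, was at 1.70 on the TCP array, 1.43 on the CS array and 0.56 on the CSHA array. It was 2.22-fold lower on CSHA than on TCP, the lowest of the 48 factors, and its software error was 0.0665. Its spots ran from 1.61 to 1.79 on TCP, then 1.34 to 1.52 on the CS array and 0.48 to 0.63 on the CSHA array, where 9 of the 10 were usable. None of these ranges overlapped, which covers repeat prints of single arrays only. The share of all probes printed 10 times for which this held was not counted. EIF2B4, the delta subunit, was at 1.98, 1.81 and 1.33, with a 1.56-fold lower level on CSHA than on TCP. EIF2B3, the gamma subunit, was at 3.01, 3.13 and 2.85, with its sign on CSHA against TCP turned by spike-in scaling, and EIF2B1, the alpha subunit, was at 3.46, 3.51 and 3.69. EIF2B1 was the only subunit above TCP on CSHA, with spots from 3.61 to 3.77 beside 3.35 to 3.54 on TCP. Thus 4 of 5 subunits were below 0 with a median of -0.16, which turned to 0.28 with spike-in scaling, where 2 subunits remained below 0. EIF2B5 and EIF2B3 form the catalytic part of eIF2B and EIF2B1, EIF2B2 and EIF2B4 its regulatory part, so the 2 called subunits came from both parts.

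**Figure D3:**
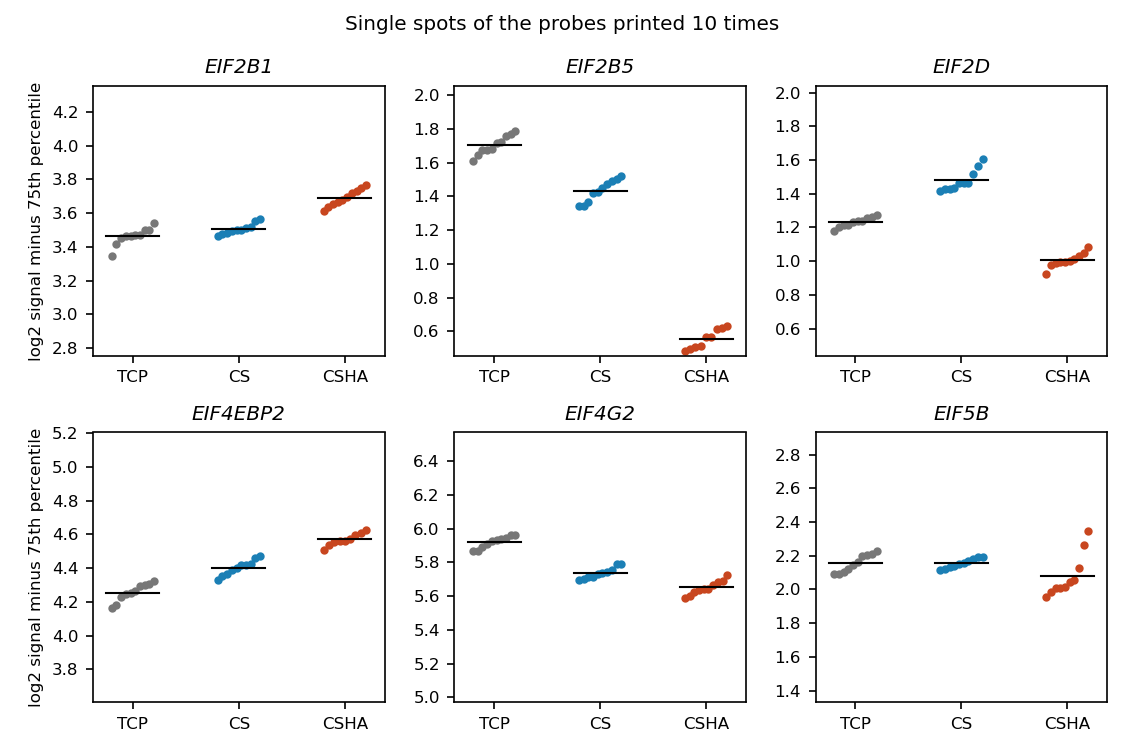
Level (log2 signal minus the 75th percentile of the array) of single spots for the 6 factors whose probe was printed 10 times, with dots ordered by value within each array and black lines at the mean. Every panel spans the same number of log2 units. The spots of EIF2B5 on CSHA, from 0.48 to 0.63, lie below all those on TCP and CS, EIF4EBP2 steps upwards from TCP to CSHA, and those of EIF5B overlap on all arrays, while spike-in scaling would move the CSHA dots up by 0.44 relative to TCP. The share of all probes printed 10 times with such separation was not counted.

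eIF2 itself showed small differences. EIF2S1, the alpha subunit that is phosphorylated under stress, was at 1.26, 1.44 and 1.37 on TCP, CS and CSHA. EIF2S2, the beta subunit, was at 3.42, 3.33 and 3.17, so it was 0.24 lower on CSHA than on TCP, but 0.19 higher with spike-in scaling. EIF2A, a factor that can bring the initiator tRNA by another route, was at 2.58, 2.98 and 2.86, higher on both membranes with its brightest probe. A second EIF2A probe differed from TCP by -0.08 on CS and 0.22 on CSHA. EIF2D, also an alternative tRNA factor, had spots from 1.18 to 1.27 on TCP, then 1.42 to 1.60 on the CS array and 0.92 to 1.08 on the CSHA array. On this scale EIF2D was highest on CS and lowest on CSHA, with no overlap between the spots of any pair of arrays. Spike-in scaling puts EIF2D on CSHA above TCP, and the lack of overlap was not examined with that scaling. The 4 genes of this group split evenly, 2 above and 2 below 0, on CSHA against TCP, while all 4 were below 0 on CSHA against CS, with a median of -0.14 that turned to 0.24 with spike-in scaling.

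eIF3, the largest of the factors, was divided among its subunits. EIF3G, an RNA-binding subunit that acts during scanning, was at 3.07 on the TCP array, 3.03 on the CS array and 2.26 on the CSHA array. It was alike on TCP and CS and 1.75-fold lower on CSHA than on TCP. EIF3B, a scaffold subunit of the complex, was at 6.35, 6.00 and 5.86, below TCP on both membranes, with a second probe at -0.58 beside -0.49 for the brightest on CSHA. EIF3E was at 6.83, 7.26 and 7.18, the highest of the complex relative to TCP on both membranes. The 13 measured subunits had 7 above and 6 below 0 on CSHA against TCP, with a median of 0.03, and 8 above and 5 below on CS, with a median of 0.07. With spike-in scaling 10 were above and 3 below 0 on CSHA against TCP, with a median of 0.46. EIF3A, the largest subunit, was at 0.34 on CSHA against TCP, and EIF3F and EIF3K were at -0.34 and -0.52. EIF3C and EIF3CL are near-identical copies, and the EIF3C probe may read both.

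Among the factors of start codon selection and subunit joining, EIF6 stood alone. EIF6, which binds the large ribosomal subunit, keeps it from joining too early and takes part in its assembly, was at 5.99, 6.15 and 5.32 on TCP, CS and CSHA. It was 1.60-fold lower on CSHA than on TCP, and its difference from CS was -0.83. EIF1B, a paralogue of the start codon factor EIF1, was at 1.40, 1.51 and 1.82, the highest of the group relative to TCP on CSHA. EIF5, which promotes GTP hydrolysis by eIF2, was at 0.50, 0.70 and 0.66, and EIF1AD, a gene with an eIF1A-like domain, at 3.08, 3.05 and 3.08. EIF5B, the GTPase of subunit joining, had overlapping spots on all 3 arrays, and EIF1AX was at 0.10 with its brightest probe but at 0.68 with another. Of the 7 genes, 4 were above and 3 below 0 on CSHA against TCP, with a median of 0.10, whereas 6 were above and 1 below with spike-in scaling, with a median of 0.53.

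Factors that carry the name but act mainly outside initiation were a little higher on CSHA. EIF4A3, a helicase of the exon junction complex, was at 5.82 on the TCP array, 5.96 on the CS array and 6.10 on the CSHA array. EIF5A, which helps the ribosome through difficult stretches of elongation, was at 4.70, 4.70 and 4.90, and EIF5AL1 at -1.64, -1.70 and -1.29. The EIF5A and EIF5AL1 sequences are near-identical, so their probes may share targets. All 4 genes of the group were above 0 on CSHA against TCP, by 0.19 to 0.35, and none passed 1.5-fold. Of all genes 61.7% were above 0, with a median of 0.13. With spike-in scaling all 4 were past 1.5-fold, with a median of 0.75 beside 0.57 over all genes. The share of all genes past the fold is not given for that scale.

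Between the membranes, CSHA against CS, 3 of the 48 factors were past 1.5-fold, beside 15.0% of the 14599 genes compared and 11.7% of those well above background on every array. All 3 were lower on CSHA. They were EIF2B5 at -0.88, EIF6 at -0.83 and EIF3G at -0.77, where 7.33% of all genes were lower by this fold. EIF4G1 was at -0.49 and EIF2B4 at -0.48, under the threshold, and PDCD4 at 0.27. The factors had a median of 0.01, beside 0.07 over all genes, and were split evenly into 24 above and 24 below 0, beside 58.5% above over all genes. With spike-in scaling, 10 factors were higher by 1.5-fold and none lower, with a median of 0.39 over the factors beside 0.46 over all genes. The share of all genes past the fold is not given for that scale. CSHA minus TCP and CSHA minus CS share the CSHA array, and the contrasts with TCP share the TCP array, so genes appearing in more than 1 contrast are not a second observation.

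The 6 factors called on CSHA against TCP were compared over 9 other ways of processing the same arrays. Each factor rested on a single probe well above background on every array. The mean over probes and the stricter and absent filters on dim probes therefore could not change these values. EIF2B5 lay between -1.21 and -0.71, EIF4G1 between -1.09 and -0.58 and EIF3G between -0.87 and -0.37. EIF6 lay between -0.73 and -0.24, EIF2B4 between -0.70 and -0.21, and PDCD4 between 0.48 and 1.03. No sign turned for any of the 6, and the values nearest 0 of the 5 lower factors came from spike-in scaling.

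**Figure D4:**
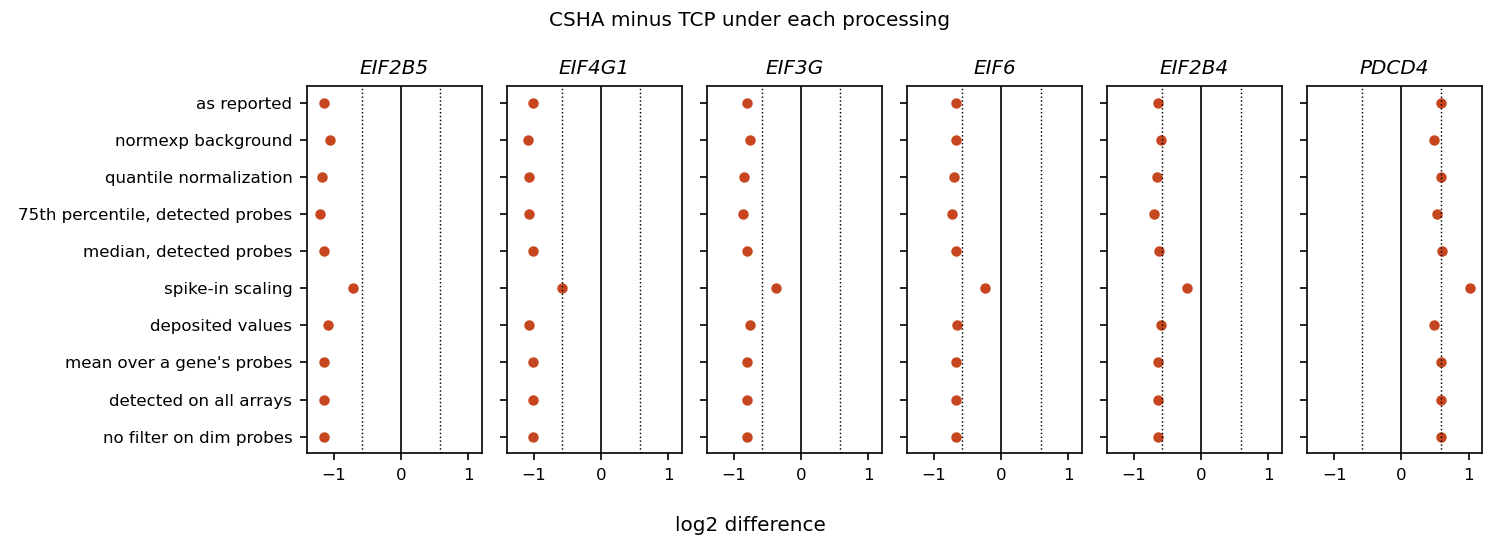
Difference in log2 level, CSHA minus TCP, of the 6 factors past 1.5-fold (panels) under each processing (rows), with solid lines at 0 and dotted lines at 1.5-fold. Each row is the same pair of arrays processed another way, not a replicate. The rows for the mean over probes and for the filters on dim probes repeat the reported value by construction. The points keep their side of 0 in every row, and with spike-in scaling EIF2B5 alone of the 5 lower factors stays past the dotted line.

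The promoters printed above were read against all RefSeq coding promoters of the same length. A promoter was held for 41 of the 48 measured factors. CACGTG occurred in 10 of the 41, or 24.4%, beside 8.88% of 15843 coding promoters and 10.2% of the 9999 promoters of measured genes. The 10 were EIF1B, EIF2B3, EIF3F, EIF3K, EIF4A3, EIF4B, EIF4E, EIF4G1, EIF4H and EIF5A2, so they came from most of the complexes. On CSHA against TCP, 5 of these 10 were above and 5 below 0, with a median of -0.05. Of the 31 without the motif, 21 were above and 10 below, with a median of 0.15. On CS against TCP the medians were 0.11 with the motif and 0.07 without. The range with the motif ran from -1.02 for EIF4G1 to 0.50 for EIF4B on CSHA against TCP. Without the motif it ran from -1.15 for EIF2B5 to 0.59 for PDCD4. GGGCGG, searched on both strands as the motif bound by SP1, was in 68.3% of the factors' promoters, beside 58.5% of coding promoters and 69.2% of those of measured genes. CCAAT was in 41.5%, beside 36.4% of coding promoters and 37.1% of those of measured genes. TATAAA was in 4.88%, which is 2 of the 41, beside 9.63% and 6.31%. TGATGNAA, a core of sites bound by ATF4 with a partner, was in none of the 41. It was in 2.53% of coding promoters and 1.73% of those of measured genes, a low share for a set of 41. A match is a stretch of letters in this window and was not examined as a binding site.

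EIF2B5 and EIF4G1, the lowest factors on CSHA, both lie on chromosome 3 with 10 coding genes between them in the RefSeq order. This region was chosen after its values were seen. Of these 10, 7 had a difference for CSHA minus TCP, of which 3 were below and 4 above 0, with a median of 0.25. They ran from -0.62 for DVL3, a Wnt pathway adaptor, to 0.65 for ALG3, an enzyme of N-glycan assembly. DVL3 was 1.5-fold lower and ALG3 1.5-fold higher, and whether the region has a part in the low values of the pair was not tested.

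A list of 38 other translation genes, of which 37 were measured and GSPT2 was not well above background, gave the setting of the factors. On CS against TCP none was past 1.5-fold, beside 9.15% of all genes, and PAIP1, a partner of the poly(A)-binding protein, was closest at 0.57. On CSHA against TCP 6 were past it, beside 22.7% of all genes. Among the genes of eIF2 alpha phosphorylation, PPP1R15A, the stress-induced subunit of the phosphatase that reverses it, was at -0.23, -0.48 and -1.38 on TCP, CS and CSHA. The kinase gene EIF2AK3, which encodes PERK, was at -2.09, -2.02 and -1.39. The phosphatase subunit was thus 2.23-fold lower and the kinase 1.63-fold higher on CSHA than on TCP. The signal of EIF2AK3 was low, at 83 on TCP and 129 on CSHA in linear intensity. That of PPP1R15A was 303 on TCP and 129 on CSHA. PPP1R15B, the constitutive phosphatase subunit, and the other kinases EIF2AK1, EIF2AK2 and EIF2AK4 stayed under 1.5-fold.

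The other genes past 1.5-fold were EEF2, EEF1A2 and EEFSEC of elongation and DHX9 among the partners of initiation. EEF2, which moves the ribosome along the messenger RNA, was at 6.46 on the TCP array, 6.43 on the CS array and 5.46 on the CSHA array, a 2.00-fold lower level on CSHA with the TCP and CS arrays close together. EEF1A2, a tissue-restricted form of the factor that delivers aminoacyl tRNA, was at 5.22, 5.42 and 6.09. EEFSEC, which delivers the selenocysteine tRNA, was at -1.52, -1.79 and -2.44, with a low signal of 62 in linear intensity on CSHA. DHX9, an RNA helicase, was at 2.75, 2.48 and 1.93, and its second probe was also lower on CSHA, at -0.90. The 6 mitochondrial initiation and elongation genes were all above 0 on CSHA against TCP, with a median of 0.23 and none past 1.5-fold. Of all genes 61.7% were above 0, with a median of 0.13. Against CS, 5 of the 37 were past 1.5-fold on CSHA, namely EIF2AK3, EEF1A2, PPP1R15A, EEF2 and EEFSEC, beside 15.0% of all genes.

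**Figure D5:**
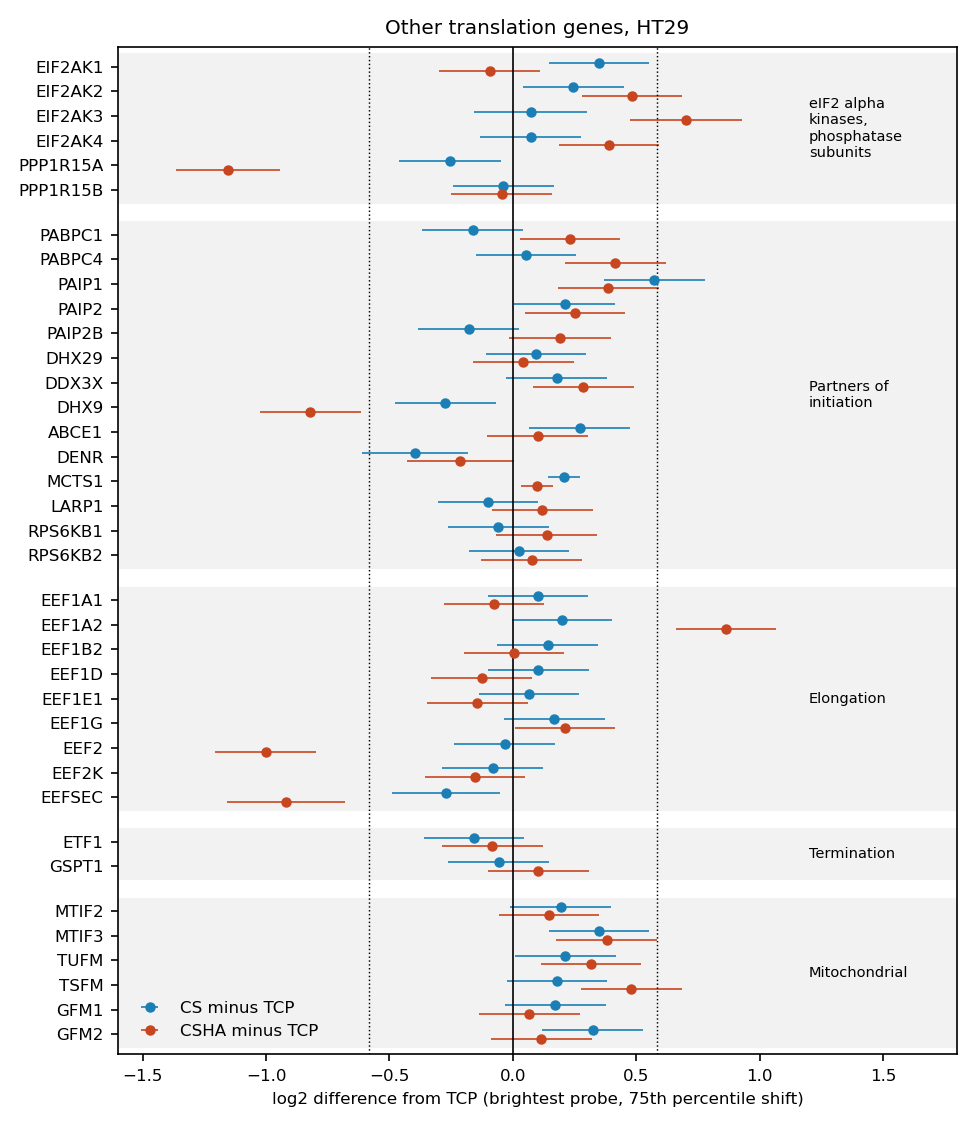
Difference in log2 level from TCP for the 37 measured genes of the other translation lists (rows, grouped by role), with CS minus TCP in blue, CSHA minus TCP in red, bars for the scanner software's error and dotted lines at 1.5-fold. PPP1R15A, EEF2, EEFSEC and DHX9 lie past the left line and EEF1A2 and EIF2AK3 past the right one on CSHA, and no gene passes either line on CS. Spike-in scaling would move the red points right by 0.44.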

How the data were processed

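Total RNA of HT29 cells from 3 surfaces was hybridised to Agilent one-colour arrays of 62976 spots, with 1 array for each of TCP, CS and CSHA. The deposited scanner files hold the intensity of each spot, background-subtracted by the authors' Feature Extraction 10.7.3.1 per the file headers. The genome build behind the probe annotation was not needed for the levels. The deposited value table holds log2 values of the authors, which equalled log2 of the median signal up to a constant between arrays, so it carries no background subtraction, and its centring is not given in the sources used here. The labels and the study's methods name different RNA and labelling kits.

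Control and outlier spots were left out, spots of 1 probe were averaged, and log2 signal minus the array's 75th percentile (354 on TCP, 422.5 on CS and 337 on CSHA, linear intensity) was compared between arrays. Between 48.6% and 51.1% of the 50599 probes were well above background, and 0 spots were saturated. A gene was compared when its brightest probe was well above background on both arrays, or by a lower bound of its difference when on 1 of them; all 48 measured factors were so on each array. Of the probes, 30004 were named through RefSeq accessions and 20595 were not matched. There was 1 array per group, so no test was made; the number of arrays limits the precision. A call is 1.5-fold, with 2-fold as an alternative. The script that computes the differences was checked on simulated intensities with known changes. Python 3.11.15, numpy 2.4.6, pandas 2.3.3, R 4.3.3 and limma 3.58.1 (normexp alternative) were used.

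Values on all arrays are given for members past 1.5-fold in any comparison, the highest and lowest of each complex against TCP, and a list of eIF4F, eIF2 and regulator genes, and for related genes past 1.5-fold. The members, complexes and lists were chosen with earlier results of these data known. One leukocyte marker is not reported here.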

Additional observations from a re-analysis of the deposited data

How the results depend on the processing

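The counts of factors past the fold, their medians, the medians of the 7 complexes and the 30 genes named by rule were recomputed with normexp background correction, quantile normalization, 2 other percentile or median shifts, spike-in scaling, the deposited values, the mean over a gene's probes, a stricter and no filter on dim probes, and, for counts, 2-fold. The stricter and absent filters could not move the 30 named genes, which were well above background on every array. Under each of these filters all 90 single differences were thus unchanged by construction. The other percentile and median shifts add only a constant to each pair of arrays. Of 30 recomputed counts 25 stayed within 1.5 times, of 189 complex medians 170 moved by less than the spot spread, and of 810 single differences 736 moved by less than the software error. Spike-in scaling accounted for most of the others; the cause was not tested. With it, 25 factors were past 1.5-fold on CSHA against TCP (24 higher, 1 lower) and 10 on CSHA against CS, with medians of 0.57 and 0.39 over the factors. Over all genes the medians with it were 0.57 and 0.46, and the share of all genes past the fold with it is not given. The complex medians on CSHA against TCP became 0.53 for start codon factors, 0.38 for eIF2, 0.28 for eIF2B (reversed), 0.46 for eIF3, 0.72 for eIF4F, 0.74 for its regulators and 0.75 for factors outside initiation. On CSHA against CS they became 0.41, 0.24 (reversed), 0.11 (reversed), 0.29, 0.52, 0.55 and 0.59 in the same order. Among the 30 named genes the sign of differences larger than the software error turned for EIF2S2 at 0.19 and EIF4G2 at 0.17 on CSHA against TCP, and for EIF2B3 at 0.11 and EIF4G2 at 0.30 on CSHA against CS. Differences within that error turned for 4 genes on CS against TCP, 3 on CSHA against TCP (EIF1AD, EIF2B3 and EIF4H) and 8 on CSHA against CS.

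At 2-fold, 2 factors were called on CSHA against TCP and 0 on CSHA against CS. Without a filter on dim probes, 1 gene, EIF4E1B, was past 1.5-fold on CS against TCP, from signal not well above background. The median of the factors outside initiation was -0.0397 on CS against TCP with the deposited values, and on CSHA against TCP 0.20 with normexp and 0.20 with the deposited values. With the mean over probes, the eIF4F median was 0.0741 on CSHA against TCP and that of its regulators 0.0341 on CSHA against CS. No paired analysis was possible because each group has 1 array. No alternative that leaves out a replicate could be made for the same reason.

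The spot spread and software error cover 1 array each, so culture and surface cannot be told apart. Low signal limits EIF5A2, EIF5AL1, EIF2AK3, EEFSEC, PPP1R15A on CSHA, the second probes of EIF2A and EIF4ENIF1, and the 2 unmeasured cap-binding homologues.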
